A study of Homo sapiens with 6 samples.

Results

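Wnt antagonists and feedback genes restrain Wnt signaling, and 10 of the 17448 genes in the expression table were examined as members of this group. The members were APCDD1, RNF43 and ZNRF3 at the cell membrane, DKK1, DKK3, NOTUM and SFRP1 among secreted proteins, and AXIN2, NKD1 and NKD2 inside the cell. They were matched by gene symbol and selected by function, except that APCDD1 was chosen for its large rise in the same comparison that is described here. The values of APCDD1 are therefore a description and carry no test. Of the 10 members, 8 passed the filter on low counts, while AXIN2 and SFRP1 had too few counts to be tested across all genes.

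RNA-seq was performed on HCC2814, a human lung squamous cell carcinoma (LUSC) line, grown in DMEM with fetal bovine serum. The 3 WT libraries came from cells given a non-targeting guide (sgCtrl), and the 3 MLST8-KO libraries from cells given a guide against MLST8, a subunit shared by mTORC1 and mTORC2. The labels give 48 to 72 h with guides before antibiotic selection, while the paper's methods give a shorter infection with virus. Replicates were independent experiments, and the study's methods name no cloning step for this line. Whether the 3 libraries of a group carried the same guide is not given in the sources used here. The paper's blots of this line list control and MLST8 guide samples numbered 1 to 3. Whether those numbers stand for the libraries is not given either. Values listed for a group are in the order of replicates 1, 2 and 3. MLST8 itself had 874, 827 and 842 counts in the WT libraries and 396, 629 and 401 in the MLST8-KO libraries. Its level was 58.6 ± 1.97 against 30.0 ± 7.65 CPM (counts scaled to library size, SD, n = 3 each), a log2 fold change of -0.96 (SE 0.15, adjusted p = 0.00339 by edgeR), so transcript remained in the MLST8-KO libraries. RNA level does not measure the protein. In this line the paper reported that MLST8 loss disrupted binding of mTOR to RICTOR but not to RAPTOR. It also reported less AKT phosphorylation at an mTORC2 site and no effect on an mTORC1 substrate.

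Library totals ran from 14381673 to 15744154 counts, and 3 counts, the limit that a count of 0 allows, corresponded to 0.185 to 0.216 CPM. All 10 squamous markers examined, among them TP63, KRT5 and SOX2, had at least 10 counts in every library, and their summed level in TPM (transcript units scaled by gene length and depth) was 10514 to 16151 in WT and 19874 to 21978 in MLST8-KO libraries. MLST8-KO replicate 1 stood apart in liver transcripts. Their summed level was 328.0 TPM there and 1.04 to 7.77 TPM in the other 5 libraries, and 12 of the 14 liver genes measured, such as AFP and FGA, were at least 5 times higher there than in any other library. These transcripts made up 0.03% of that library's counts. Their part in the results was not tested, and the log2 fold change without that library is given beside the result for each tested member.

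Wnt ligands bind Frizzled receptors with the co-receptors LRP5 and LRP6, which stops a cytoplasmic destruction complex from degrading beta-catenin, and beta-catenin then activates target genes with TCF/LEF factors. Several of those targets encode inhibitors of the pathway and so close a negative feedback loop, AXIN2 and NKD1 being the usual examples, and Wnt signaling is known in the lung for its part in epithelial development and repair. APCDD1 is a membrane glycoprotein that inhibits Wnt signaling at the level of ligand and receptor, and DKK1 is a secreted protein that binds LRP5 and LRP6.

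The promoters of APCDD1 and DKK1 are shown because these genes had the largest log2 fold changes of the tested members, one in each direction. Each stretch is from RefSeq (GRCh38.p14, plus strand) and holds 250 bases before and 50 bases from the start site, at chr18:10454385-10454684 for APCDD1 and chr10:52314031-52314330 for DKK1. Capitals mark the motif CTTTGNN in which each N is A or T, letters known to be bound by TCF/LEF factors, which was searched on both strands.
APCDD1: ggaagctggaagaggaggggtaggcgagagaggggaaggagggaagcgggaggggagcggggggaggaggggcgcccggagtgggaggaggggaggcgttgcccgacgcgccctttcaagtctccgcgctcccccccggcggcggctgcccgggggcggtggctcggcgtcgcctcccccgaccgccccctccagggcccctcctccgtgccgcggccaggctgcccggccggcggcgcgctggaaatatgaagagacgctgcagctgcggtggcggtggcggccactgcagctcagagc
DKK1: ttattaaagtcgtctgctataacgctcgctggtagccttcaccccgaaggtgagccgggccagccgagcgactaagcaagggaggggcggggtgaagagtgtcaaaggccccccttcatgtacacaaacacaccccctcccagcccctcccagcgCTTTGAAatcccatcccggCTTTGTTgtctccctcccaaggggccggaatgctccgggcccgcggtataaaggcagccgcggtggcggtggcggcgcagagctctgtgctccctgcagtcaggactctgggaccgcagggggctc
The DKK1 window held 2 matches, CTTTGAA with its first base at position -95 and another that read CTTTGTT at -76 from the start site, and the APCDD1 window held 0. A match was found in 13.8% of the 35116 promoters of the table, and 1.58% had 2 or more. Only 4 of the 10 members had a promoter in that table, and NKD2 and RNF43 also had 0 matches. The APCDD1 window was 76.0% G or C and the DKK1 window 63.7%, beside a median of 58.7% over all promoters. A match of letters describes the sequence and does not show binding.

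APCDD1 was higher in every MLST8-KO library than in any WT library. The gene lies on the plus strand at chr18:10454628-10489948 (GENCODE coordinates of GRCh38), and its exons overlap those of no other annotated gene. Its counts were 175, 100 and 51 in the WT libraries and 661, 561 and 500 in the MLST8-KO libraries. The groups were far apart, and the WT libraries were also uneven, with the highest WT level in CPM 3.15 times the lowest against 1.33 times in MLST8-KO. Mean levels were 7.39 ± 3.99 CPM in WT and 36.4 ± 5.53 CPM in MLST8-KO (SD, n = 3 each), a log2 fold change of 2.29 (SE 0.29) or 4.89-fold. Leaving out 1 library at a time gave log2 fold changes from 1.97, without WT replicate 3, to 2.78, without WT replicate 1. The value without MLST8-KO replicate 1 was 2.16. In bulk RNA, a change in the share of cells that express a gene and a change in RNA per cell cannot be told apart.

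The uneven WT levels of APCDD1 were shared with the squamous markers. WT replicate 1 was the highest and WT replicate 3 the lowest of the WT libraries for APCDD1 and for 10 of the 10 squamous markers, as it was for 3 of the 10 members and for 3537 of the 12951 genes tested. Of the squamous markers, 7 passed the edgeR test as higher in MLST8-KO, against 16.3% of all genes tested. Every MLST8-KO library was above every WT library for 8 of the 10 squamous markers, against 24.8% of genes tested. NKX2-1, a transcription factor used as a lung adenocarcinoma marker, had 59, 40 and 24 counts in WT and 166, 163 and 138 in MLST8-KO libraries (log2 fold change 1.81, adjusted p = 0.00281 by edgeR). Together, the 7 adenocarcinoma markers measured summed to 4.36 to 8.03 TPM in WT and 11.8 to 17.5 TPM in MLST8-KO. NKX2-1 and ROS1 carried that sum, at 2.32 and 2.79 TPM in WT and 8.80 and 5.33 TPM in MLST8-KO on average. The surfactant genes and NAPSA had at most 8 counts in any library, with SFTPD at a mean of 0.687 TPM in WT and 0.547 TPM in MLST8-KO. The part of these markers in the APCDD1 values was not tested.

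**Figure D1:**
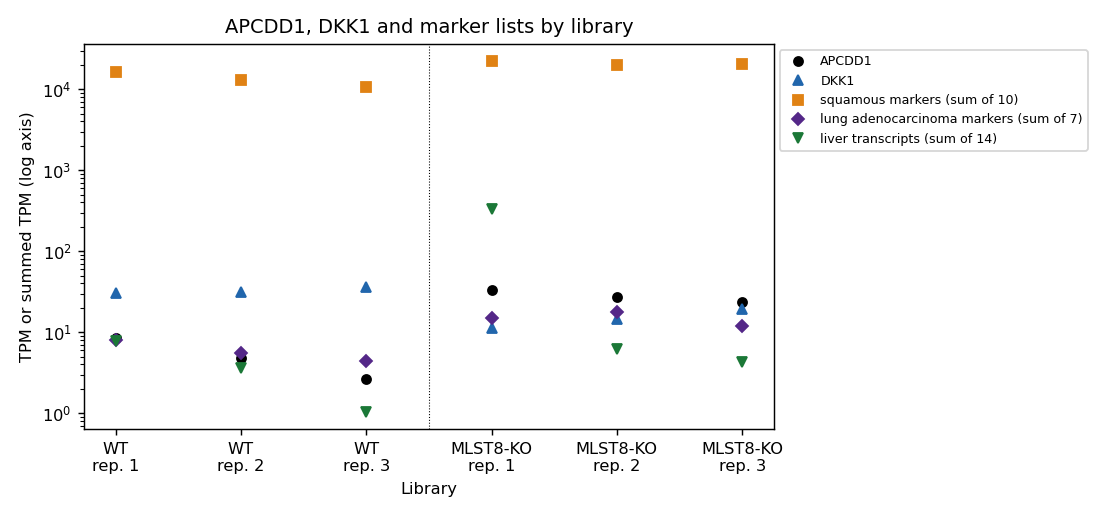
Level per library (log axis) of APCDD1 and DKK1 in TPM and of 3 marker lists as summed TPM, with 1 point per library and the number of genes measured in each list in the legend. APCDD1 and the squamous and adenocarcinoma sums are higher in the 3 MLST8-KO libraries, DKK1 is lower in them, and the liver sum stands out at 328.0 TPM in MLST8-KO replicate 1.

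RNF43 and ZNRF3 are membrane ubiquitin ligases that remove Frizzled receptors from the cell surface. Neither passed the edgeR test. RNF43 had 320, 317 and 340 counts in WT and 335, 401 and 299 in MLST8-KO libraries, with a log2 fold change of -0.04 (SE 0.12, 95% interval -0.31 to 0.22, adjusted p = 0.799 by edgeR). For ZNRF3 the counts were 484, 513 and 331 in WT and 429, 491 and 471 in MLST8-KO, with a log2 fold change of -0.05 (SE 0.14, 95% interval -0.35 to 0.25, adjusted p = 0.790 by edgeR). The groups overlapped for both genes, and the sign of both small differences turned with upper quartile scaling and in TPM. Without MLST8-KO replicate 1 the log2 fold changes were -0.04 for RNF43 and -0.01 for ZNRF3. RNF43 shares exon sequence with SUPT4H1 on the same strand, so its counts are uncertain.

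DKK1 was the member that fell in MLST8-KO cells. It lies on the plus strand at chr10:52314296-52318042, and its exons overlap the antisense gene PRKG1-AS1, which the table does not list. Counts of DKK1 were 450, 436 and 506 in the WT libraries and 158, 208 and 287 in the MLST8-KO libraries. Every MLST8-KO library was below every WT library, with the smallest gap at MLST8-KO replicate 3. Mean levels were 32.1 ± 3.80 CPM in WT and 13.8 ± 4.17 CPM in MLST8-KO (SD, n = 3 each), 2.33-fold lower. The log2 fold change was -1.22 (SE 0.19, 95% interval -1.63 to -0.81, adjusted p = 0.00339 by edgeR), against 15.7% of all 12951 genes that were called lower. DKK1 kept its call in all 6 fits that left out 1 library, with log2 fold changes from -1.48 to -1.04, the latter without MLST8-KO replicate 1.

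DKK3, a related secreted protein whose part in Wnt signaling is less settled, was the most abundant member. It had 3536, 2962 and 2738 counts in WT and 3460, 3592 and 3973 in MLST8-KO libraries. The groups overlapped in CPM, since WT replicate 1 was above 2 of the 3 MLST8-KO libraries. The log2 fold change was 0.14 (SE 0.09, 95% interval -0.07 to 0.34, adjusted p = 0.273 by edgeR), or 0.17 without MLST8-KO replicate 1. In TPM the groups were barely apart, at 177.19 in WT replicate 1 and 178.37 in MLST8-KO replicate 1. On log2(TPM + 1) the log2 fold change was 0.24, also not called (adjusted p = 0.0708 by limma). NOTUM, a secreted enzyme that removes the lipid from Wnt ligands, had 24, 26 and 13 counts in WT and 13, 9 and 28 in MLST8-KO. Its groups overlapped widely, and the log2 fold change was -0.45 (SE 0.43, adjusted p = 0.443 by edgeR). The 95% interval of -1.40 to 0.50 did not exclude a sizable fall or a smaller rise. Its log2 fold change was -0.31 without MLST8-KO replicate 1. SFRP1, a secreted protein that binds Wnt ligands, had 7, 2 and 2 counts in WT and 5, 3 and 2 in MLST8-KO, so that most libraries were at or near the limit of 3 counts. The pooled CPM ratio of MLST8-KO over WT was 0.835 (exact 95% interval 0.318 to 2.17, for counting error only), and the two-sided exact permutation test gave p = 0.8.

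NKD2 was the member other than APCDD1 that rose. NKD1 and NKD2 bind Dishevelled inside the cell and dampen Wnt signaling. NKD2 had 28, 30 and 33 counts in WT and 65, 47 and 53 in MLST8-KO libraries, and its groups did not overlap. Mean levels were 2.10 ± 0.264 CPM in WT and 3.50 ± 0.651 CPM in MLST8-KO (SD, n = 3 each), 1.66-fold higher, with a log2 fold change of 0.73 (SE 0.22, adjusted p = 0.0318 by edgeR), against 16.3% of all genes that were called higher. The call of NKD2 did not hold in DESeq2 (adjusted p = 0.088). It was also lost in 4 of 6 fits with 1 library left out, with edgeR log2 fold changes of 0.65 and 0.72 when WT replicate 1 or 2 was absent and 0.58 and 0.75 when replicate 1 or 3 of MLST8-KO was absent.

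NKD1 had 14, 10 and 6 counts in WT and 24, 18 and 10 in MLST8-KO libraries. The groups overlapped, and the log2 fold change of 0.67 (SE 0.42, 95% interval -0.26 to 1.60, adjusted p = 0.238 by edgeR) was 0.35 without MLST8-KO replicate 1. AXIN2, the scaffold protein that serves as a standard readout of Wnt signaling, was barely detected, with 2, 4 and 1 counts in WT and 8, 11 and 9 in MLST8-KO libraries. Every MLST8-KO library was above every WT library, and the pooled CPM ratio was 3.67 (exact 95% interval 1.57 to 9.96, for counting error only). A two-sided exact permutation test gave p = 0.1, the smallest that 3 against 3 libraries allow. AXIN2 shares exon sequence with AC004805.1 on the same strand, which leaves its few counts uncertain.

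**Figure D2:**
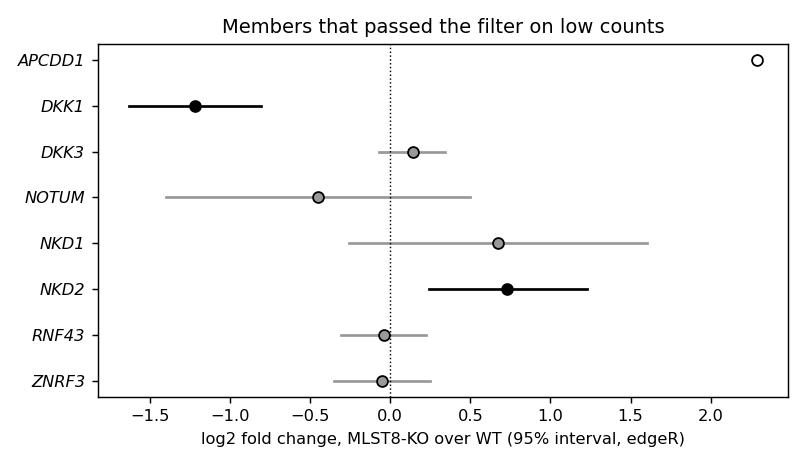
Log2 fold change of MLST8-KO over WT from edgeR for the 8 members that passed the filter, with lines for 95% intervals, black points for adjusted p under 0.05 and grey points for the rest. APCDD1 is an open point at 2.29 with no interval because it was chosen on this comparison, DKK1 lies at -1.22, NKD2 at 0.73, and the intervals of the other 5 members include 0.

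Among the 7 tested members other than APCDD1, 1 was called higher, 1 lower and 5 neither, with a median log2 fold change of -0.04 beside 0.00 for all genes tested. Among these 7 members every MLST8-KO library was above every WT library in CPM for NKD2, against 24.8% of genes tested, and below for DKK1, against 24.2%. APCDD1, whose separation follows from how it was chosen, and AXIN2, which was not among the genes tested, are left out of that comparison. One call in each direction among 7 genes was near the share of all genes called. The plot by setting shows the values of APCDD1, DKK1 and NKD2 under each alternative.

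**Figure D3:**
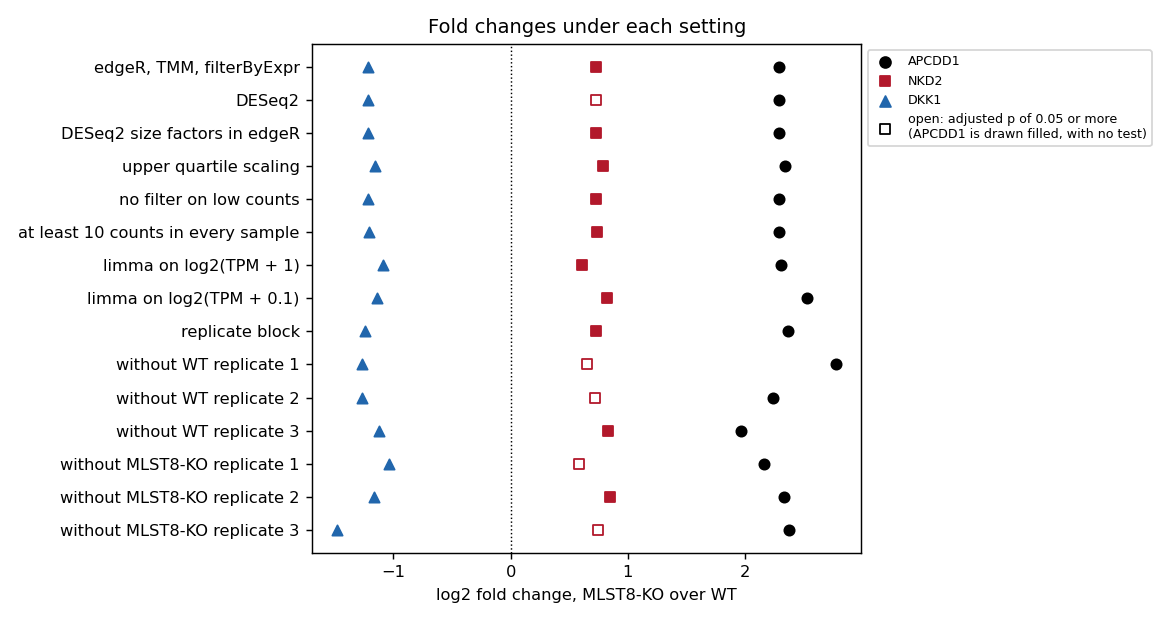
Log2 fold change of MLST8-KO over WT for APCDD1, NKD2 and DKK1 under the edgeR fit in the top row and each of 14 alternatives, with open symbols where the adjusted p was 0.05 or more. APCDD1 carries no test and stays between 1.97 and 2.78, DKK1 stays filled, and NKD2 is open in DESeq2 and in 4 fits that leave out 1 library.

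On the TPM scale, which allows levels of different genes to be set side by side, the order of the members differed between the groups. In WT cells DKK3 led with 156.4 ± 18.6 TPM, followed by DKK1 with 32.7 ± 3.10 TPM (SD, n = 3). ZNRF3 at 8.49 ± 1.83 TPM and RNF43 at 8.26 ± 0.310 TPM did not differ beyond their spread. APCDD1, at 5.29 ± 2.91 TPM, was below both in every WT library. It was close to RNF43 in WT replicate 1, at 8.39 against 8.46 TPM, and further below in WT replicate 3, at 2.62 against 8.41 TPM. NKD2 at 1.97 ± 0.205 TPM and NOTUM at 1.25 ± 0.408 TPM came next. SFRP1, NKD1 and AXIN2 were near 0.1 TPM or lower, with overlapping spreads.

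In MLST8-KO cells DKK3 again led, with 184.4 ± 8.74 TPM, and APCDD1 was second with 28.1 ± 4.74 TPM (SD, n = 3). DKK1 followed with 15.1 ± 4.22 TPM, above RNF43 at 9.13 ± 1.10 TPM and ZNRF3 at 8.83 ± 0.463 TPM, which did not differ beyond their spread. NKD2 had 3.56 ± 0.617 TPM and NOTUM 0.977 ± 0.571 TPM. AXIN2 was at 0.293 ± 0.0493 TPM, NKD1 at 0.177 ± 0.0862 TPM and SFRP1 at 0.0933 ± 0.0416 TPM, and the libraries of neighbours in this order overlapped among these 3.

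**Figure D4:**
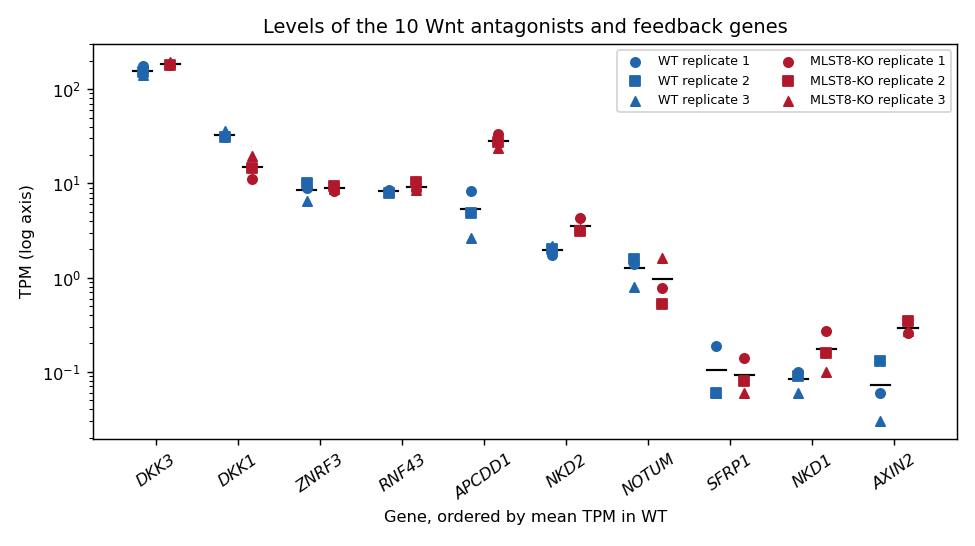
TPM (log axis) of the 10 members in each library, ordered by mean WT level, with WT in blue, MLST8-KO in red, 1 symbol per replicate number and a black bar at the group mean. APCDD1 lies below the ubiquitin ligases RNF43 and ZNRF3 in each WT library and above DKK1 in MLST8-KO, and DKK3 is the highest member in all 6 libraries.

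The relative order of APCDD1 and DKK1 turned. The ratio of APCDD1 to DKK1 in TPM was 0.272, 0.157 and 0.0723 in the WT libraries and 2.96, 1.90 and 1.21 in the MLST8-KO libraries. DKK1 was thus the more abundant transcript in every WT library and APCDD1 in every MLST8-KO library, with no test because APCDD1 was chosen on these values. The summed level of the 10 members was 198.4 to 237.3 TPM in WT and 245.4 to 260.2 TPM in MLST8-KO. DKK3 made up 71.4% to 74.7% of that sum in all 6 libraries. APCDD1 made up 1.32% to 3.54% in WT and 9.12% to 13.5% in MLST8-KO libraries, and DKK1 13.0% to 18.3% and 4.57% to 7.52%.

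Genes near APCDD1, DKK1 and NKD2, the 3 with the largest fold changes among members that passed the filter, were compared in the same fit. Within 1000000 bases of APCDD1, 5 genes were tested and log2 fold changes ran from -0.24 to 0.30, with RAB31 called higher (0.30, adjusted p = 0.047 by edgeR). The 1 gene tested near DKK1, CSTF2T, had a log2 fold change of 0.00 (adjusted p = 0.98 by edgeR). Near NKD2, 19 genes were tested, of which 5 were called higher and 5 lower, with log2 fold changes from -1.19 to 0.86. Over all genes tested, 16.3% were called higher and 15.7% lower. Whether the calls near NKD2 differ from those shares was not tested.

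The 5 genes whose pattern was most like that of APCDD1 over the 6 libraries, on log2 CPM and among 11187 genes compared, were ANXA4, TMEM37, NKX2-1, C21orf91 and DDX58. Their Pearson correlations were 0.999 for ANXA4, TMEM37 and NKX2-1 and 0.998 for C21orf91 and DDX58. As a description, 920 genes reached 0.95 or more, and the points share their 2 groups. The 5 names depended on the scale, since 0 of them stayed among the 5 highest on log2(TPM + 1) and 1 did without MLST8-KO replicate 1.

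The other genes of the pathway were counted in 7 lists that held 114 genes, of which 110 were in the table and 87 passed the filter. In MLST8-KO cells 23 were called higher and 13 lower, with a median log2 fold change of 0.16 beside 0.00 for all genes. Over all 12951 genes tested, 2116 (16.3%) were called higher and 2030 (15.7%) lower. Thus 51.0% of calls were higher, and this share was 62.0% with upper quartile scaling and 71.0% with limma on log2(TPM + 1). Without MLST8-KO replicate 1 the lists held 10 higher and 4 lower calls. The calls were 28 higher and 8 lower with upper quartile scaling, and 34 higher and 7 lower on either TPM scale.

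Among 9 further antagonists tested, 4 were called higher and 2 lower, against 16.3% and 15.7% of all genes. Their median log2 fold change was 0.24. TMEM131L, a membrane protein that lowers LRP6, had 88, 75 and 49 counts in WT and 157, 200 and 127 in MLST8-KO (log2 fold change 1.07, SE 0.22, adjusted p = 0.00687 by edgeR). KREMEN1, a receptor for Dickkopf proteins, had 399, 379 and 325 counts in WT and 652, 659 and 627 in MLST8-KO, and its log2 fold change was 0.69 (SE 0.09, adjusted p = 0.00281 by edgeR). Its relative KREMEN2 moved the other way, at 51, 80 and 72 counts in WT and 31, 34 and 51 in MLST8-KO (log2 fold change -0.93, SE 0.26, adjusted p = 0.0231 by edgeR). The groups did not overlap in CPM for TMEM131L, KREMEN1 or KREMEN2. Of all genes tested, 24.8% had every MLST8-KO library above every WT library and 24.2% had every one below. The KREMEN2 groups were barely apart, at 3.38 CPM in WT replicate 1 and 3.27 CPM in MLST8-KO replicate 3, each with 51 counts. In TPM these 2 libraries were at 3.26 and 3.28, so the KREMEN2 groups overlapped on that scale.

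APCDD1L, the paralog of APCDD1, fell while APCDD1 was higher. It had 127, 103 and 111 counts in WT and 80, 73 and 80 in MLST8-KO libraries, with no overlap (log2 fold change -0.67, SE 0.15, adjusted p = 0.0107 by edgeR). TRABD2B, a protease that inactivates Wnt ligands, and SOST, which binds LRP5 and LRP6, rose by log2 fold changes of 0.87 and 0.60 (adjusted p = 0.0234 and 0.0242 by edgeR), and each lost its call in 4 of 14 alternatives. SOSTDC1, chosen after its values were seen, did not pass the filter, with 2, 0 and 0 counts in WT and 9, 9 and 10 in MLST8-KO (pooled CPM ratio 12.9, exact 95% interval 3.24 to 111.4 for counting error only).

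Of 15 genes for Wnt ligands and their secretion, 4 were called higher and 2 lower, against 16.3% and 15.7% of all genes. Their median log2 fold change was 0.13. WNT7A had the largest fall, from 206, 230 and 390 counts in WT to 117, 145 and 97 in MLST8-KO libraries (log2 fold change -1.34, SE 0.26, adjusted p = 0.00584 by edgeR). WNT4 also fell (log2 fold change -0.46, adjusted p = 0.0187 by edgeR). WLS, which carries Wnt ligands to the cell surface, rose from 711, 595 and 434 to 1082, 992 and 1016 counts (log2 fold change 0.71, adjusted p = 0.00524 by edgeR). WNT9A, WNT3A and WNT3 rose by log2 fold changes of 0.85, 0.82 and 0.68, with the calls of WNT9A and WNT3A lost in 4 of 14 alternatives each.

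Of 16 receptors and co-receptors, 3 were called higher by edgeR, against 16.3% of all genes, and 13 were not called. Their median log2 fold change was 0.21. FZD8 and FZD1, Frizzled receptors, rose by log2 fold changes of 0.81 and 0.53 (adjusted p = 0.0356 and 0.00584 by edgeR), and FZD8 lost its call in 6 of 14 alternatives while FZD1 kept it in all 14. LRP5 rose from 810, 665 and 676 to 968, 1055 and 1161 counts (log2 fold change 0.45, adjusted p = 0.0089 by edgeR), while LRP6 had a log2 fold change of 0.03 (adjusted p = 0.804 by edgeR). The difference between the co-receptors was not tested.

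The receptors LGR4, LGR5 and LGR6 bind R-spondins, which hold RNF43 and ZNRF3 away from Frizzled receptors. All 3 were called higher in the edgeR fit on all libraries, among 4 genes tested of their list, against 16.3% of all genes. RNF43 and ZNRF3 were not called. Without MLST8-KO replicate 1 the list held 0 higher calls. It held 1 without WT replicate 2, WT replicate 3 or MLST8-KO replicate 2. LGR4 had 331, 335 and 317 counts in WT and 515, 494 and 433 in MLST8-KO, a log2 fold change of 0.43 (adjusted p = 0.0113 by edgeR). LGR6 had 21, 23 and 23 counts in WT and 36, 42 and 41 in MLST8-KO (log2 fold change 0.70, adjusted p = 0.0374 by edgeR), and its call was lost in 9 of 14 alternatives. LGR5 had 10, 9 and 3 counts in WT and 20, 42 and 15 in MLST8-KO (log2 fold change 1.67, SE 0.49, adjusted p = 0.0276 by edgeR), and lost its call in 4 of 13. It passed the filter on low counts only through the MLST8-KO libraries, where it was higher, so its call carries that limit. The alternative with at least 10 counts in every library did not hold LGR5. For each of the 3 genes every MLST8-KO library was above every WT library, as for 24.8% of genes tested in CPM. For LGR5 this separation carries the same limit from the filter.

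The cytoplasmic relay and destruction complex held more lower than higher calls in the edgeR fit with TMM scaling, with 1 of 20 genes higher and 6 lower and a median log2 fold change of -0.12, against 16.3% and 15.7% of all genes called higher and lower. GSK3B, a kinase of the destruction complex, fell from 2839, 3314 and 4036 counts in WT to 1810, 2239 and 2007 in MLST8-KO, with no overlap (log2 fold change -0.88, SE 0.14, adjusted p = 0.00357 by edgeR). CSNK1D, AXIN1, FBXW11, CTNNB1 and CSNK1A1 fell by smaller amounts, with log2 fold changes of -0.40, -0.28, -0.27, -0.23 and -0.22. These smaller calls were less stable, with AXIN1 losing its call in 6 of 14 alternatives, FBXW11 and CTNNB1, which encodes beta-catenin, in 8, CSNK1A1 in 10 and CSNK1D in 1. With upper quartile scaling or on either TPM scale the list held 2 higher and 2 lower calls, and without MLST8-KO replicate 1 it held 1 lower call. DVL2, a Dishevelled gene, was the 1 that rose (log2 fold change 0.38), and APC, a scaffold of the complex, did not pass the test (0.16, adjusted p = 0.245 by edgeR).

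Of 14 nuclear factors and cofactors, 4 were called higher and 2 lower, against 16.3% and 15.7% of all genes. Their median log2 fold change was 0.26. LEF1 had 77, 54 and 28 counts in WT and 116, 133 and 130 in MLST8-KO, with no overlap (log2 fold change 1.14, SE 0.26, adjusted p = 0.0107 by edgeR). The corepressor TLE3 rose by 0.87 on the log2 scale, TCF7L1 by 0.66 and BCL9 by 0.33, the last losing its call in 6 of 14 alternatives. The coactivators PYGO2 and BCL9L had log2 fold changes of -0.68 and -0.37 (adjusted p = 0.00281 and 0.0118 by edgeR). TCF7 and TCF7L2 did not pass the test, at log2 fold changes of 0.55 and 0.47 (adjusted p = 0.0752 and 0.0676 by edgeR).

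Of 12 other Wnt target genes tested, 6 were called higher and 1 lower, against 16.3% and 15.7% of all genes. Their median log2 fold change was 0.53. The list held 2 higher and 0 lower calls without WT replicate 2 or without MLST8-KO replicate 1. On either TPM scale it held 10 higher and 0 lower calls. LEF1 and LGR5, already counted above, were among the 6 called higher, LGR5 with the limit from the filter. CLDN1, a tight junction protein, had 6556, 5052 and 3772 counts in WT and 10280, 12808 and 7694 in MLST8-KO (log2 fold change 0.88, SE 0.19, adjusted p = 0.00807 by edgeR), and EPHB3, an ephrin receptor, rose by 0.80. ASCL2 and SOX4, both transcription factors, rose by 0.56 and 0.32 on the log2 scale, each with an adjusted p of 0.0487 by edgeR, and lost their calls in 8 and 5 of 14 alternatives. CD44, a cell adhesion receptor, was lower (log2 fold change -0.23, adjusted p = 0.0324 by edgeR), a call that was lost in 7 of 14 alternatives. MYC (-0.24, adjusted p = 0.0918 by edgeR) and CCND1 (0.30, adjusted p = 0.0543 by edgeR) did not pass the test, and SP5 had 0 or 1 count in each library.

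**Figure D5:**
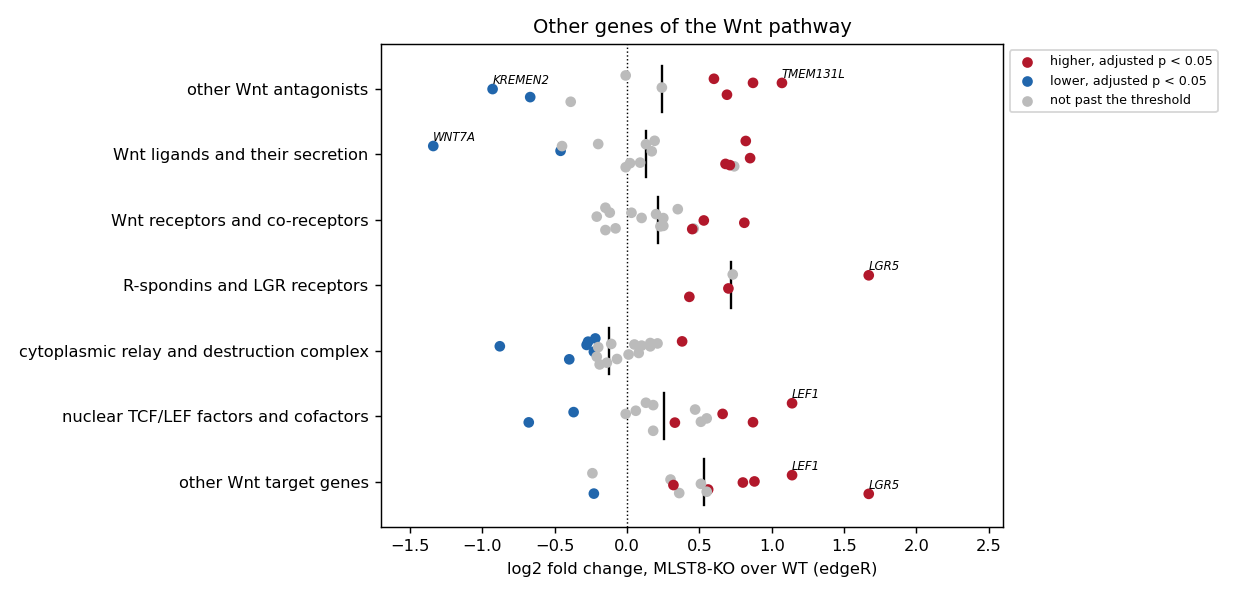
Log2 fold change of MLST8-KO over WT from edgeR for each tested gene of the 7 other Wnt lists, 1 point per gene, with black bars at list medians and the genes of largest change named. Red points passed the test as higher and blue points as lower, and the cytoplasmic list has 6 lower and 1 higher calls with this scaling, against 2 and 2 with upper quartile scaling or in TPM. LEF1, LGR5 and TCF7 appear in 2 lists each.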

How the data were processed

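Total RNA from HCC2814 cells was sequenced by BGI (DNBSEQ, polyA selection) as 3 WT and 3 MLST8-KO libraries, grouped by their labels. Reads with adapters, many unknown bases or low quality were discarded by the authors, who used HISAT against GRCh38.p12 and Bowtie2 against gene sequences (all named in the submitters' processing notes). Estimated counts and TPM per gene and library were deposited. TPM is scaled by the authors for gene length and depth. The strand of the libraries and the tool that estimated the counts are not given in the sources used here. The authors' table of their own comparisons (fold changes with p-values and q-values) was not used.

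The tests had been designed for whole counts. Since 12.4% of the estimated counts were not whole, they were rounded first. Libraries were scaled with TMM, low counts were removed with filterByExpr, and 12951 of 17448 genes were compared by edgeR 4.0.16 in R 4.3.3 (glmQLFit and glmQLFTest, group only, Benjamini-Hochberg over all genes tested, threshold 0.05). SE is the absolute log2 fold change over the square root of F. CPM uses TMM library sizes. Alternatives were DESeq2 1.42.0, its size factors in edgeR, upper quartile scaling, no filter on low counts, a minimum of 10 counts in all samples, limma 3.58.1 on log2(TPM + 1) and log2(TPM + 0.1), a replicate block, and leaving out each library. All pairs of replicates within a group differed beyond sampling noise (chi-square divided by genes, 6.77 to 26.2). The edgeR step was tested on simulated counts.

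The members, lists and tests were chosen with earlier results of these data known. Named genes are the 10 members, MLST8, up to 4 called genes per direction in each other Wnt list, 14 fixed pathway genes, the markers, and the 5 genes with the highest Pearson correlation with APCDD1 among genes with a mean of at least 50 counts. CSNK1A1, ASCL2, SOX4, RAB31, CSTF2T and SOSTDC1 were named after their values were seen. Listed genes without a row, such as DKK2 and WNT1, are not analysed here. Coordinates are those of GENCODE release 29, and figures were drawn with matplotlib 3.10.9.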

Additional observations from a re-analysis of the deposited data

How the results depend on the processing

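Under 14 alternatives DKK1 kept its direction and its call, and APCDD1 kept its direction. Members other than APCDD1 called higher numbered 1 in the edgeR fit, 0 in DESeq2, 2 with no filter (AXIN2 then had a log2 fold change of 1.82, adjusted p = 0.0479 by edgeR) and 0 to 1 with a library left out. NKD2 was at 0.73 in DESeq2, no longer called, and at 0.58 to 0.85 with a library left out. RNF43 turned to 0.01 with upper quartile scaling and to 0.13 and 0.14 in limma on log2(TPM + 1) and log2(TPM + 0.1), and ran from -0.14 to 0.04 with a library left out. ZNRF3 turned to 0.00, 0.07 and 0.08 under the same settings and ran from -0.20 to 0.06. LRP6 ran from -0.03 to 0.09 with a library left out. TPM shifted the median of all genes by 0.10 (pseudocount 0.1) or 0.09, and upper quartile scaling by 0.05. In the other Wnt lists the higher calls ran from 10 to 32 with a library left out (10 without WT replicate 2 or MLST8-KO replicate 1, 13 without MLST8-KO replicate 2, 15 without MLST8-KO replicate 3), and the lower calls from 4 to 14 (4 without MLST8-KO replicate 1, 6 without WT replicate 2 or MLST8-KO replicate 2). Higher and lower calls were 28 and 8 with upper quartile scaling and 34 and 7 on either TPM scale. Of the 36 called genes of those lists, 13 kept their call in every alternative and 0 changed sign. Over all genes, leaving out a library gave 971 to 2692 higher and 850 to 2651 lower calls, and DESeq2 gave 1858 and 2012. Of the 5 genes most like APCDD1, 0 stayed on the TPM scale and 1 without MLST8-KO replicate 1. The cause of these changes was not tested. Same-numbered libraries had correlated deviations of 0.105, 0.0565 and 0.140, so the numbers were not taken to pair them, though each library correlated best with its own number. With a replicate block 2261 genes were higher and 2157 lower, members other than APCDD1 stayed at 1 higher and 1 lower, and the other lists had 26 and 12 calls. Counts of AXIN2, SFRP1, NKD1 and NOTUM limit what could be detected.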
